A study of Mus musculus with 8 samples.

Results

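Open chromatin that ATAC1 shared with ATAC3 or ATAC4, and in which ATAC2, ATAC5 and ATAC6 had no peak, made up 881 of 50683 regions (1.74%). To define the regions, the peaks of all 7 libraries were merged where they shared at least 1 base, and a region was kept when it held a peak of ATAC1, a peak of ATAC3 or ATAC4, and none of ATAC2, ATAC5 or ATAC6. A peak of ATAC7 was allowed and not required. The regions were thus chosen by the peak calls of these 6 libraries, and the calls and the signal in them are given as a description, while the DNA sequence, the position, the nearest genes and ATAC7 were not used in the choice.

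The study mapped accessible chromatin by ATAC-seq, in which a transposase cuts open DNA, in bone marrow stromal cells sorted from mice labelled as C57BL/6J, wild type and 6 weeks old. The 7 libraries are titled ATAC1 to ATAC7, with 1 library per title and 1 Input control shared by all of them, and no treatment was given in the labels. The sources used here do not tie a title to a sorted subpopulation, so the libraries are called by their titles. By the study's methods the cells were sorted as negative for CD31, CD45 and TER119, the last of which is a surface antigen of red cell precursors. Since there are no replicates, no difference between libraries could be tested, and intervals below are 95% Wilson intervals of shares of regions, or 95% Newcombe intervals of differences between shares, which cover counting error only. Neighbouring regions of 1 locus are not independent.

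In blood cell formation, transcription factors of the GATA family bind the letters GATA and open the enhancers of red cell and megakaryocyte genes, often in a complex with a basic helix-loop-helix factor at an E-box nearby. PU.1, C/EBP and RUNX factors open the enhancers of granulocytes and macrophages. Promoters of widely used genes lie in CpG-rich DNA and are open in most cells, whereas distal enhancers are open in few cell types.

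The defining markers of the labelled stromal cells were checked through peaks within 1000 bases of their start sites. Pdgfra, the receptor used in the sort, had such a peak in ATAC2, ATAC4, ATAC5, ATAC6 and ATAC7 but not in ATAC1 or ATAC3, and Cxcl12, a stromal chemokine, had one in ATAC2 and ATAC5. The stromal genes Lepr and Prrx1 had none in any library, nor did Ly6a, which encodes Sca-1, another antigen used in the sort. Ptprc, which encodes CD45, had a start-site peak in ATAC1, ATAC3, ATAC5 and ATAC7, and Spi1, which encodes PU.1, had one in all 7. Pecam1, the endothelial gene that encodes CD31, and the B cell gene Cd79a had one in ATAC5 only. Gata1 and the endothelial gene Cdh5 had none. Of all coding genes, between 42.2% in ATAC7 and 52.9% in ATAC5 had a start-site peak. None of the 11 markers checked was the gene nearest to one of the 881 regions, where 3.17% of all coding genes were linked to one.

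By the libraries in which they were called, the regions fell into 3 classes. ATAC1 with ATAC4, without ATAC3, had 454 regions, ATAC1 with ATAC3, without ATAC4, had 310, and ATAC1 with both had 117. The classes differed in sequence and in the genes nearby. Distal regions of ATAC1 with ATAC4 held a GATA site in 39.3%. Of that class, 22 regions lay nearest to 17 of the 44 genes on the lists of red cells and megakaryocytes. By comparison, 1.67% of all coding genes were linked to the class. Of the 22, 9 lay at genes of the erythroid and megakaryocyte list and the others at lists added after the data were seen. Distal regions of ATAC1 with ATAC3 held a GATA site in 8.56%, and had PU.1, C/EBP and RUNX sites more often than ATAC1 with ATAC4. Regions of ATAC1 with ATAC3 were linked to 5 of 20 genes of interleukin 1 and Toll signalling, against 1.10% of all coding genes. That list was also added after the data were seen.

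The following windows of 200 bases, read at the centres of 7 regions of the ATAC1 with ATAC4 class, are shown because they hold the GATA letters that set this class apart. They are mm9 sequence on the plus strand. Capitals mark the GATA site AGATAA, or TTATCT on this strand, and the GATA and CTG letters of a composite of GATA and E-box, in which CTG, or CAG on this strand, lies 7 or 8 bases from the GATA letters.
Alas2 region (chrX:146984356-146984555): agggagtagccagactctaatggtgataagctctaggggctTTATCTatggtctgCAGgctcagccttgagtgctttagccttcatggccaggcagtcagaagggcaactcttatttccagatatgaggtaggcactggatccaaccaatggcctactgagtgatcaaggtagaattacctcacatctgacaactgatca
Alas2 region (chrX:146999316-146999515): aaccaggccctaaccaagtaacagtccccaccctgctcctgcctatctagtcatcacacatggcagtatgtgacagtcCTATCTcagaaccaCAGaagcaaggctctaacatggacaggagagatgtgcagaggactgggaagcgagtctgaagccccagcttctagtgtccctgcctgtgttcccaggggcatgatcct
Inpp5d region (chr1:89603053-89603252): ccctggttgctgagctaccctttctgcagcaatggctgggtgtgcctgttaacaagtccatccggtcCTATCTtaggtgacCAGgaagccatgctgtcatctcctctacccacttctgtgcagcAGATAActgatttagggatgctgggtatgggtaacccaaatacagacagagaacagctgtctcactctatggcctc
Inpp5d region (chr1:89609023-89609222): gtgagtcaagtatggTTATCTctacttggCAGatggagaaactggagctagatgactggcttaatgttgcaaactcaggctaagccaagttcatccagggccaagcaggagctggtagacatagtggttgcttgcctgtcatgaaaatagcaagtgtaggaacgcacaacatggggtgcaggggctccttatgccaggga
Rbm38 region (chr2:172860628-172860827): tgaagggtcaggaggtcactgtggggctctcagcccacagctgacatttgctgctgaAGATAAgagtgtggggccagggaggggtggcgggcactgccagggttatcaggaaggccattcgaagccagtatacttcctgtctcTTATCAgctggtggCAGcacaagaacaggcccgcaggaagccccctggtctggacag
Asprv1 region (chr6:86589816-86590015): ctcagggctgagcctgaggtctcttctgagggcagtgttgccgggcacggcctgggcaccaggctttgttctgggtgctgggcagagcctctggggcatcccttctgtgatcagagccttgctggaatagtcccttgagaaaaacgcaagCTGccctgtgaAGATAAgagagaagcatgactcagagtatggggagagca
Nprl3 region (chr11:32165180-32165379): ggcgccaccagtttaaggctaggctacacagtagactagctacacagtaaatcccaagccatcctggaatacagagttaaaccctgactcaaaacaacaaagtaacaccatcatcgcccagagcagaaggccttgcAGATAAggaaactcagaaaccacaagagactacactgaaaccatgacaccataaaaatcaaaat

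The pair of Alas2 windows lie in introns of the gene for the erythroid 5-aminolevulinate synthase, the first enzyme of haem synthesis, and in each the composite reads on the minus strand. The Inpp5d windows lie in introns of a phosphatase of blood cells, and the Nprl3 window lies in a gene whose introns are known to hold the enhancers of the neighbouring alpha-globin genes. The Rbm38 window lies 12177 bases from the nearest coding start site, that of an RNA-binding protein of red cell splicing. The Asprv1 window lies 11748 bases from the start site of a skin protease.

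For contrast, 4 windows of the ATAC1 with ATAC3 class are shown because they hold PU.1, C/EBP or RUNX sites. Capitals mark the PU.1 site GAGGAAGT, the C/EBP site TTGCNNAA and the RUNX site TGTGGT, on either strand. Mmp9 and Cxcl5 were chosen after their values were seen.
Asprv1 region (chr6:86543403-86543602): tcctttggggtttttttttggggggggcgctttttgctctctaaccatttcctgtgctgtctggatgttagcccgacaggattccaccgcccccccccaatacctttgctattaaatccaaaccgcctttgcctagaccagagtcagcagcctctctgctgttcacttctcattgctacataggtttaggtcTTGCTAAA
Irak2 region (chr6:113604190-113604389): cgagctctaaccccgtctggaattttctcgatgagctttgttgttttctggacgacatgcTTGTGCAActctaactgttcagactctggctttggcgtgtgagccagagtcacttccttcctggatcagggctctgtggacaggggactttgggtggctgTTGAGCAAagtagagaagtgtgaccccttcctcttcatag
Mmp9 region (chr2:164768502-164768701): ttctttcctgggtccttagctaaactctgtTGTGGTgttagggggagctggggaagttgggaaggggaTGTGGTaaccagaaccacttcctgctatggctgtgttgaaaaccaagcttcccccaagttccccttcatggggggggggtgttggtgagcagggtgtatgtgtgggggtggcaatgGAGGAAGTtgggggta
Cxcl5 region (chr5:91171152-91171351): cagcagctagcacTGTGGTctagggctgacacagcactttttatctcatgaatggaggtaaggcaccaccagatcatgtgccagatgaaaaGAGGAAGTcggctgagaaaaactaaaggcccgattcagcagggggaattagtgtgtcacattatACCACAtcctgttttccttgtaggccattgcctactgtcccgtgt

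The Irak2 window holds a pair of C/EBP sites in an intron of a kinase that acts below the interleukin 1 and Toll-like receptors. The Mmp9 window, in an intron of a neutrophil granule protease, and the Cxcl5 window, 17073 bases from the start site of a neutrophil attractant, each hold a PU.1 site and a pair of RUNX sites. The remaining Asprv1 window, 34665 bases from that gene's start site, holds 1 C/EBP site. The letters do not part the printed windows fully. The Cxcl5 window also holds TTATCT, the GATA site on this strand. The Nprl3 window and the Alas2 window at chrX:146999316-146999515 hold ACCACA, the RUNX site on this strand. These matches are not in capitals.

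Most regions were called in few libraries. ATAC1 and ATAC4 alone shared 431 regions, and ATAC1 and ATAC3 alone shared 288. ATAC1, ATAC3 and ATAC4 shared 62 without ATAC7 and 55 with it, and ATAC7 joined 23 regions of ATAC1 with ATAC4 and 22 of ATAC1 with ATAC3. The plot of library combinations shows these numbers with the promoter and distal regions apart.

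**Figure D1:**
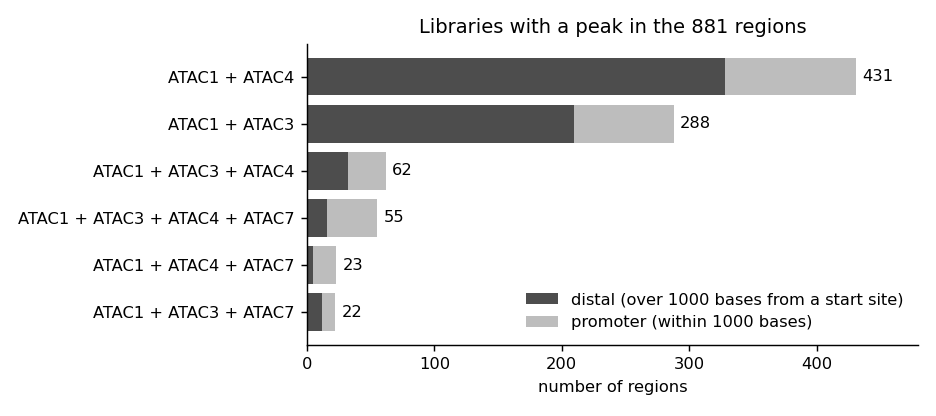
Number of regions (horizontal axis) for each combination of libraries with a peak, split into distal regions (dark) and regions within 1000 bases of a start site (light). ATAC1 with ATAC4 alone is the longest bar at 431 regions, and of the 55 regions with all 4 libraries 39 are promoters.

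The regions were a small share of what ATAC1 had in common with ATAC3 or ATAC4. Of 14451 regions with ATAC1 and ATAC3 or ATAC4, 6.10% (5.72 to 6.50) met the rule, and 13570 also held a peak of ATAC2, ATAC5 or ATAC6. ATAC7 had a peak in 11.4% (9.42 to 13.6) of the 881 regions, against 27.4% of all merged regions. It had one in 47.0% (38.2 to 56.0) of the regions with both ATAC3 and ATAC4, in 7.10% of those with ATAC3 and in 5.07% of those with ATAC4. Regions of ATAC1 with none of ATAC2 to ATAC6 held ATAC7 in 1.58% of 3672, and the regions of ATAC1 with ATAC3 or ATAC4 that also held ATAC2, ATAC5 or ATAC6 had it in 78.0% of 13570. The mirror set, with ATAC5 and ATAC2 or ATAC6 and none of ATAC1, ATAC3 or ATAC4, held ATAC7 in 10.6% of 6998. With each list limited to its best 15188 peaks, the share of ATAC7 was 25.1% against 52.4% of all regions. It was 3.88% against 30.5% when outer regions were merged, and 3.96% against 31.6% when peaks within 500 bases were merged.

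Reads below are those of a library in the outer region of a peak, beside the Input reads in the same stretch, and they are not scaled between libraries. In ATAC1 the median was 104 reads (quartiles 75 and 148) against 15.0 Input reads, in ATAC4 it was 81 (62 and 118) against 13, and in ATAC3 86 (64 and 133) against 16. All peaks of these libraries had medians of 140, 158 and 169 reads in ATAC1, ATAC4 and ATAC3. On a scale from 0 for the best peak of a list to 100 for the last, the median rank was 62.4 in ATAC1, 81.0 in ATAC4 and 81.2 in ATAC3, so that the peaks of ATAC3 and ATAC4 lay near the end of their lists. The median fold over Input was 8.55 in ATAC1, 7.2 in ATAC4 and 5.71 in ATAC3, where all peaks of these libraries had 7.89, 6.13 and 5.77. Regions with both partners, of which 59.0% were promoters, had a median of 160 reads and a fold of 8.12 in ATAC1, and those with ATAC4 alone as partner had 101 reads and a fold of 9.27. The libraries differed in their number of peaks, from 15188 in ATAC7 to 32280 in ATAC2, with 24510 in ATAC1, 16027 in ATAC3 and 15650 in ATAC4, and in bulk libraries fewer open cells and less open chromatin per cell cannot be told apart.

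Many of the regions had a peak of the absent libraries close by. Of the 881, 58 lay within 10 bases of a peak of ATAC2, ATAC5 or ATAC6 and 260 within 500 bases, and 621 (70.5%, 67.4 to 73.4) were isolated, with none within 500 bases, near the 71.6% of ATAC1 alone. Promoter regions were isolated in 42.1% (36.4 to 48.0) and distal regions in 83.6% (80.4 to 86.3), against 37.6% and 84.0% of ATAC1 alone. The median distance was 329 bases for promoter and 5050 for distal regions. Regions just inside the rule lay 1 base from such a peak, at 2400001E08Rik, with 788 ATAC1 and 566 ATAC4 reads, at Rbl2, with 296 ATAC1, 110 ATAC3 and 140 ATAC4 reads, and 53361 bases from Mxi1, with 173 ATAC1 and 105 ATAC4 reads. Just outside it were regions at Tmpo, Utp14a and Calm2, where the peak of ATAC2 or ATAC6 did not touch a peak of ATAC1, ATAC3 or ATAC4 and was joined to them by another peak. At Tmpo, ATAC1 had 571 reads and ATAC6 had 95, and at Utp14a ATAC1 had 601 and ATAC2 had 441.

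The regions lay less often at start sites than regions in general. A start site was within 1000 bases of 31.6% (28.6 to 34.7), against 40.0% of all regions, 26.7% of the 3614 regions of ATAC1 alone and 19.5% of the 3374 regions of exactly ATAC2, ATAC5 and ATAC6. The class with both ATAC3 and ATAC4 stood apart, at 59.0% (49.9 to 67.5), from ATAC1 with ATAC4 at 26.7% (22.8 to 30.9) and ATAC1 with ATAC3 at 28.4%. Introns held 52.4% of the centres, against 41.9% of all regions, and 35.4% lay between genes, against 40.2%. The intron share was 50.6% in ATAC1 alone and 48.8% in the regions of exactly ATAC2, ATAC5 and ATAC6. The share between genes was 38.1% and 41.7% in these sets. CpG-rich windows, with a GC content of at least 50% and at least 0.6 of the CpG that the bases would give, made up 17.9% (15.5 to 20.6), against 29.1% of all regions. They made up 9.88% of ATAC1 alone, 12.2% of the regions of exactly ATAC2, ATAC5 and ATAC6, and 45.3% of the class with both partners. When the outer regions of the peaks were merged in place of the peaks, the promoter share was 16.8% and the CpG-rich share 3.31%. When at least 50 bases in common were asked for, the promoter share was 41.3%, close to 42.3% of all regions.

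The 3 best isolated regions of ATAC1, ATAC3 and ATAC4 together, by their mean rank, were at start sites. The first was at Mob3a (chr10:80164649-80164913, 216 bases from the start site of this kinase activator), with 2343 reads in ATAC1, 1599 in ATAC3, 1209 in ATAC4 and 1361 in ATAC7. Mcm9, a helicase gene of DNA repair, had 1336 reads in ATAC1, 265 in ATAC3 and 259 in ATAC4, over a region of 57 bases. Ugp2, the enzyme that makes UDP-glucose, had 514, 593 and 335 reads and no ATAC7 peak. A region at Tlcd1 and one 131 bases from a start site of Gm14321 were among the next. None of these named promoter regions had a GATA, PU.1 or C/EBP site. In the class of ATAC1 with ATAC3 the best isolated region was at Etv6, an ETS factor of blood stem cells, 133 bases from its start site, with 962 reads in ATAC1 and 468 in ATAC3. In the class of ATAC1 with ATAC4 it was at Morf4l1, a subunit of histone acetylation complexes, with 1446 reads in ATAC1 and 515 in ATAC4, followed by Ttc7, with 266 and 229. The second of ATAC1 with ATAC3, 57536 bases from Vmn2r121, had 147 reads in ATAC1 against 80 Input reads.

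Among isolated distal regions of the class with both partners the best ranked were at Stxbp5, Hnrnpul1, Cdk13, Gm9817 and Zfp692, with 210 to 880 reads in ATAC1, and a region on chromosome Y, 300500 bases from Gm3395, with 107 ATAC1 reads against 58 Input reads. The first lay 1009 bases from the start site of Stxbp5, just beyond the limit for a promoter, and had 880 reads in ATAC1, 240 in ATAC3 and 290 in ATAC4. Of these, the Gm9817 region held a GATA site, the Hnrnpul1 region a PU.1 site and the Zfp692 region a C/EBP site.

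GATA sites were more frequent in the regions than in other distal regions, above all where ATAC4 was the partner. Among distal regions, those over 1000 bases from a start site, windows of 200 bases held AGATAA on either strand in 26.2% (22.9 to 29.9) of 603, against 7.36% of 30406 distal regions in all. The class of ATAC1 with ATAC4 had it in 39.3% (34.2 to 44.7) of 333, and ATAC1 with ATAC3 in 8.56% (5.55 to 13) of 222. The difference between these classes was 30.8 percentage points (24 to 36.9). ATAC1 alone had it in 14.9% of 2650 regions, 24.4 points (19.1 to 29.9) below ATAC1 with ATAC4, and regions of ATAC2, ATAC5 and ATAC6 in 4.13% of 2715. On each of the 20 chromosomes with at least 5 distal regions of ATAC1 with ATAC4, the share was higher than in the other distal regions. Among isolated regions of the class it was 43.9% (38.2 to 49.8), and at promoters 22.3% (15.8 to 30.5) of 121, against 3.72% of all promoter regions.

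Over all distal peaks of a library the GATA share was 13.5% in ATAC4 and 10.7% in ATAC1. It was 5.56% in ATAC3, and in the other 5 libraries, ATAC3 included, it lay between 3.93% in ATAC7 and 6.74% in ATAC6. Without the peaks of the 881 regions it was 10.9% in ATAC4 and 9.75% in ATAC1. Within the class, the better ranked of 3 equal groups of ATAC4 peaks had the site in 49.5% (40.4 to 58.7) of 111 regions, and the middle and last groups in 34.2% (26.1 to 43.5) each. The letters of the site read backwards, AATAGA, which no factor is named for, were found in 6.01% of the class and in 7.38% of all distal regions.

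The composite of GATA and E-box was searched after the data had been seen. It asks for CTG, then 7 or 8 bases, then A or T, GATA, and A or G, on either strand, and so overlaps in part with the GATA site. It was found in 25.5% (21.1 to 30.5) of distal ATAC1 with ATAC4 regions and in 0 of 222 of ATAC1 with ATAC3, with an upper limit of 1.70%. Of all distal regions 2.21% held it, of ATAC1 alone 6.30%, and of ATAC2, ATAC5 and ATAC6 0.589%. At promoters of ATAC1 with ATAC4 regions it was found in 18.2% of 121, against 0.907% of all promoter regions.

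Other motifs divided the classes in the opposite way. The PU.1 site GAGGAAGT was in 8.56% (5.55 to 13) of distal ATAC1 with ATAC3 regions and in 2.40% (1.22 to 4.67) of ATAC1 with ATAC4, against 3.0% of all distal regions. ATAC1 with ATAC4 differed from ATAC1 with ATAC3 by -6.16 percentage points (-10.7 to -2.39). ATAC1 alone had it in 7.77%, and the difference of ATAC1 with ATAC3 from it, 0.785 points (-2.41 to 5.31), was within counting error. In windows of 100 bases the share in ATAC1 with ATAC3 was 3.15%, against 1.53% of all distal regions.

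The C/EBP site TTGCNNAA was in 18.9% (14.3 to 24.6) of ATAC1 with ATAC3 and 11.7% (8.69 to 15.6) of ATAC1 with ATAC4 regions, against 9.81% of all, and these classes differed by -7.21 points (-13.6 to -1.17). The RUNX site TGTGGT was in 29.7% (24.1 to 36.0) and 19.8% (15.9 to 24.4), against 22.7%, a difference of -9.91 points (-17.3 to -2.63). The GATA share of ATAC1 with ATAC3 exceeded that of the other distal regions by 1.21 points, with an interval of -1.82 to 5.64 that includes 0, and in windows of 100 bases it was 2.70% against 4.06% of all.

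The AP-1 site TGANTCA, bound by Fos and Jun, was in 15.4% (12.8 to 18.5) of the 603 distal regions and in 32.0% of those of ATAC2, ATAC5 and ATAC6, against 23.3% of all and 11.4% of ATAC1 alone. In ATAC1 with ATAC3 it was in 19.8%, and the difference from the other distal regions, -3.49 points (-8.23 to 2.27), was within counting error. The CTCF site, a motif of chromatin loop anchors, was found in 1 of 603 regions (0.166%), against 3.78% of all distal regions and 1.51% of ATAC1 alone. The TEAD site ACATTCC was in 1.16% (0.563 to 2.38), against 3.63% of all and 1.74% of ATAC1 alone. In all 19 motifs were fixed and 2 added, and the share of AP-1 was lower than in the other distal regions on 19 of 20 chromosomes. In ATAC1 with ATAC3 the PU.1 share was higher than in the other distal regions on 13 of 18 chromosomes and lower on 5, and the C/EBP share was higher on 12 and lower on 6. A match is a description of letters and does not show that a factor was bound. The plot of motif shares gives the classes side by side.

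**Figure D2:**
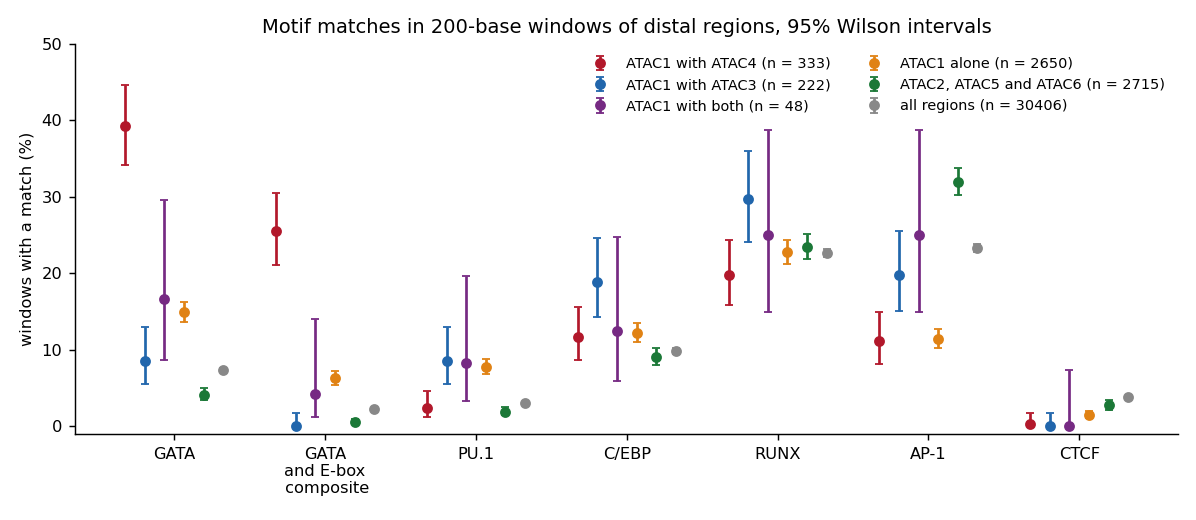
Share of 200-base windows of distal regions with a match (vertical axis, percent) for 7 motifs, with points for 6 sets of regions and bars for 95% Wilson intervals. For GATA and for the composite ATAC1 with ATAC4 lies above every other set, at 39.3% and 25.5%, and for the PU.1 site its share of 2.40% is near that of all regions.

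The GATA sites lay near the region centres. In the class of ATAC1 with ATAC4, each 50 bases next to the centre had 16.2 and 13.5 matches per 100 regions, and the stretches from 250 to 400 bases away had 1.80 to 4.2. Over all distal regions the 50 bases before the centre had 2.35, and in ATAC1 with ATAC3 they had 2.70. The PU.1 site in ATAC1 with ATAC3 rests on few matches, 3 and 4 in the stretches next to the centre and 6 in each of the next ones. The plot of matches along the regions shows the GATA maximum at the centre.

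**Figure D3:**
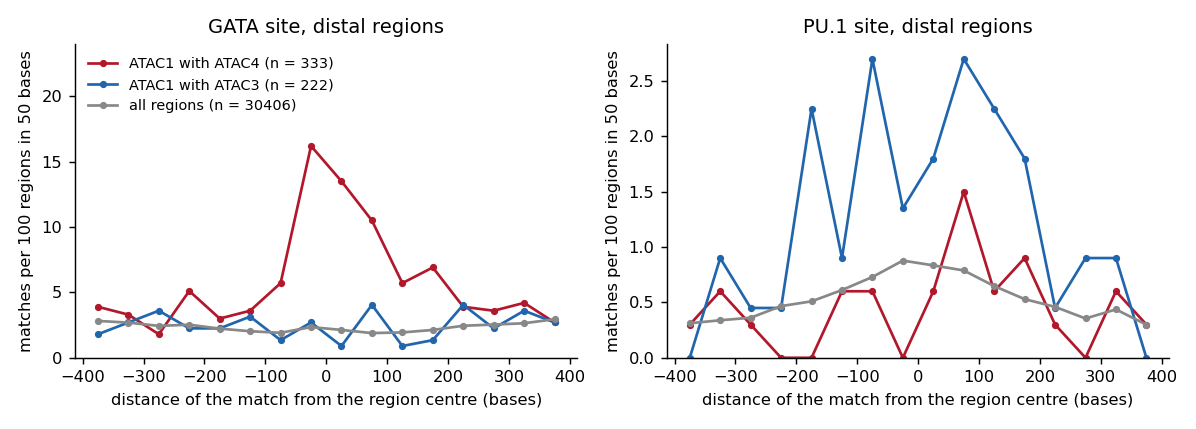
Matches per 100 distal regions in each 50 bases (vertical axis) by distance from the region centre in bases (horizontal axis), for the GATA site (left) and the PU.1 site (right), with scales of their own. GATA in ATAC1 with ATAC4 (red) has its maximum of 16.2 next to the centre, while all regions (grey) have 2.35 there.

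Each region was linked to the protein-coding gene with the nearest start site, up to 50000 bases away. The 881 regions were linked to 704 of 22225 coding genes (3.17%), those of ATAC1 with ATAC4 to 372 (1.67%), those of ATAC1 with ATAC3 to 245 (1.10%) and those with both to 109 (0.490%). Of these 704 genes, 637 had 1 region, 60 had 2, 6 had 3 and Asprv1 had 5. A nearest gene need not be the gene that a region acts on.

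Of the 20 genes in the erythroid and megakaryocyte list, 6 (30%) were linked to a region, against 3.17% of all coding genes, and all 9 of their regions were of the class of ATAC1 with ATAC4. These genes were Klf1, Alas2, Slc4a1, Ank1, Nfe2 and Vwf. The list of haem synthesis, added after the data were seen, had 3 of 8 genes, and that of the red cell membrane and skeleton, also added, had 11 of 20. The 3 lists share genes and together hold 44. Of these, 17 had 22 regions, all in the class of ATAC1 with ATAC4, none with an ATAC7 peak, 17 isolated and 7 at a promoter, where 5.07% of the whole class had an ATAC7 peak, 75.3% were isolated and 26.7% were at a promoter.

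Over these 22 regions ATAC1 had 45 to 251 reads, with a median of 124, and ATAC4 had 42 to 175, with a median of 89.0. The Input, against which the peaks were called, had 0 to 34 reads in the ATAC1 regions. The plot of reads at listed genes shows every region.

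Among regulators, Klf1, the factor that drives adult globin, had a region 25 bases from its start site (chr8:87425739-87425866), with 92 reads in ATAC1 and 76 in ATAC4 against 22 Input reads in each. Nfe2, a subunit of a globin-activating factor, had one in an intron 215 bases from its start site, with 135 and 125 reads against 10 and 11. The Nfe2 region lay 422 bases from a peak of the absent libraries and was therefore not isolated.

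Among enzymes, the Alas2 regions printed above had 138 and 90 reads in ATAC1 and 106 and 46 in ATAC4, and the Input had 7 reads in the former and 0 in the latter. They lay 38101 and 23158 bases from a peak of ATAC2, ATAC5 or ATAC6. Urod, a later enzyme of haem synthesis, had 101 and 64 reads in ATAC1 and ATAC4, in a region 316 bases from such a peak. Fech, which inserts the iron, had regions with 72 and 45 reads in ATAC1 and 130 and 42 in ATAC4.

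Among membrane and skeleton genes, Slc4a1, the band 3 anion exchanger, had regions 9006 and 9783 bases from its start site. The nearer had 251 ATAC1 reads against 34 Input reads and 175 ATAC4 reads against 30, and the other had 144 and 98 reads. Ank1, the ankyrin that ties band 3 to spectrin, had 81 ATAC1 and 78 ATAC4 reads at its start site and 195 and 125 reads 4246 bases away. These genes thus had a pair of regions each, all without a peak of ATAC3 or ATAC7.

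The erythroid spectrins, listed under the older symbols Spna1 and Spnb1, had 130 and 118 reads in ATAC1 and 71 and 112 in ATAC4. Kel, a blood group protease, had 96 and 67 reads at its start site in ATAC1 and ATAC4, and that region lay 57435 bases from a peak of the absent libraries. Tmod1, which caps actin filaments, had 203 and 150 reads, and Rhd, a blood group protein, had 158 and 79. Epb4.1, Epb4.9, Cd47 and Aqp1 had 108 to 146 reads in ATAC1 and 71 to 107 in ATAC4. The Spnb1, Aqp1 and Cd47 regions lay 20, 27 and 237 bases from a peak of the absent libraries and were not isolated. Vwf, a megakaryocyte and endothelial gene, had 106 and 82 reads.

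**Figure D4:**
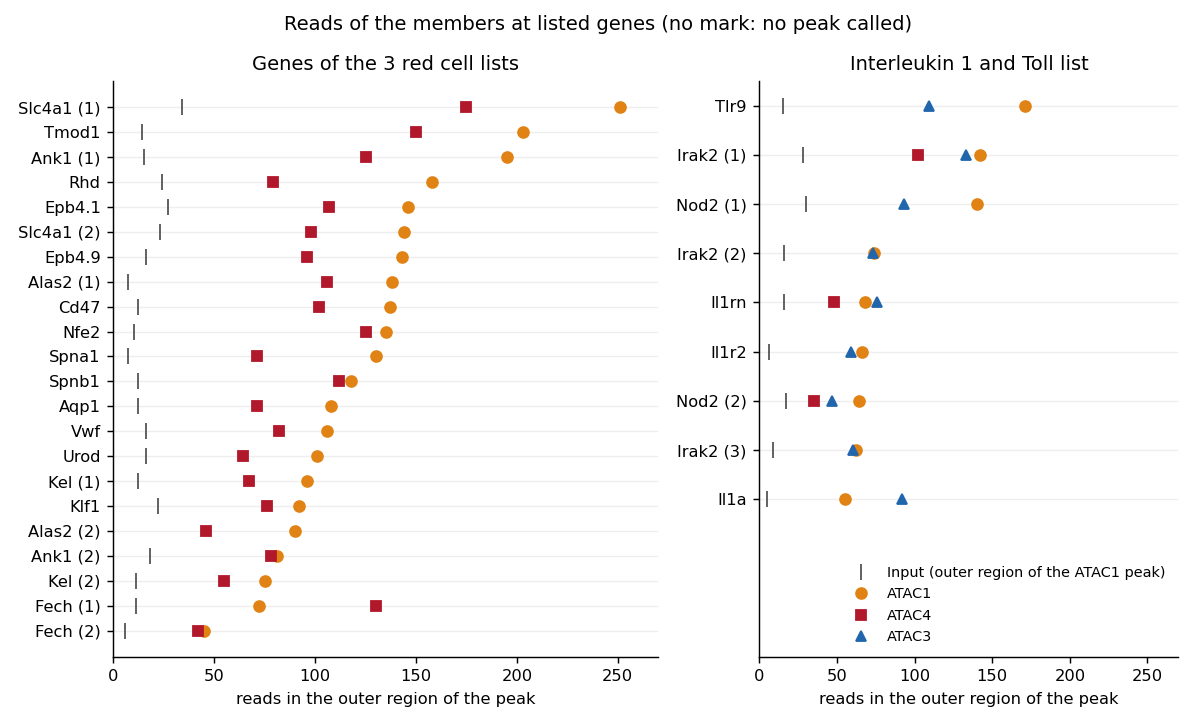
Reads in the outer region of the peak (horizontal axis, not scaled between libraries) of the regions at genes of the 3 red cell lists (left) and of the interleukin 1 and Toll list (right), for ATAC1 (circles), ATAC4 (squares), ATAC3 (triangles) and the Input in the ATAC1 region (bars). On the left the ATAC1 reads run from 45 to 251 and no triangle is drawn, since ATAC3 had no peak there.

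Within the class, the intervals of the GATA share at the listed genes and at the rest overlapped. Of the 22 regions at the listed genes, Vwf included, 36.4% (19.7 to 57.0) held a GATA site, and of the 432 other ATAC1 with ATAC4 regions 34.7% (30.4 to 39.3). Among distal regions alone the shares were 26.7% (10.9 to 52.0) of 15 and 39.9% (34.7 to 45.4) of 318. The listed genes were also open in other ways. Of all 77 merged regions linked to the erythroid list, 9 (11.7%, against 1.74% of all regions) met the rule, 12 were of ATAC1 alone, against 3614 of 50683 in all, and 6 were called in all 7 libraries. Regions of ATAC1 alone were also linked to 8 of the 20 genes of this list, 4 of 8 of haem synthesis and 10 of 20 of the red cell membrane and skeleton, against 10.5% of all coding genes. Of the 20 genes of the erythroid and megakaryocyte list, 11, 9, 4, 12, 9, 10 and 6 had a start-site peak in ATAC1 to ATAC7, and of the 8 of haem synthesis 7 had one in each of ATAC1 to ATAC6 and 6 in ATAC7. Of the 20 red cell membrane and skeleton genes, a list added after the data were seen, 18 had a start-site peak in ATAC1 and 17 in ATAC4, against 9 in ATAC2, 7 in ATAC3, 11 in ATAC5, 14 in ATAC6 and 6 in ATAC7, where 49.1%, 50.3%, 43.6%, 43.8%, 52.9%, 51.7% and 42.2% of all coding genes had one in ATAC1 to ATAC7. These libraries were sorted as TER119-negative and Gata1 had no start-site peak, and the part of red cell precursors in these regions was not tested.

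Among the genes with most regions, Rbm38, Inpp5d, Aqp9 and Nprl3 had 3 regions each, all of the class of ATAC1 with ATAC4. Rbm38 had 252, 87 and 61 reads in ATAC1 and 210, 71 and 52 in ATAC4. The Inpp5d regions had 105, 86 and 136 reads in ATAC1, and those at Nprl3 had 64, 58 and 54 in ATAC1 and 64, 35 and 117 in ATAC4. Aqp9, a channel for water and glycerol, had 58, 142 and 79 reads in ATAC1, at 26108 bases or more from a peak of the absent libraries. Asprv1 had 3 regions of ATAC1 with ATAC3, 20508 to 34665 bases from its start site, and 2 of ATAC1 with ATAC4, at 7939 and 11748 bases, with 67 to 152 reads in ATAC1. Hemgn, an erythroid nuclear factor chosen after its values were seen, had 153 and 103 reads at its start site in ATAC1 and ATAC4.

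Of the 20 genes in the list of interleukin 1 and Toll signalling, which was added after the data were seen, 6 were linked to a region, 5 of them to one of ATAC1 with ATAC3 (25%, against 1.10% of all coding genes) and 3 to one with both partners. None was linked to ATAC1 with ATAC4. Il1a, an inflammatory cytokine, had 55 reads in ATAC1 and 92 in ATAC3. Il1rn, the receptor antagonist, had 68, 76 and 48 reads in ATAC1, ATAC3 and ATAC4, and Il1r2, the decoy receptor, had 66 and 59 in ATAC1 and ATAC3.

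Downstream, Irak2 had 3 regions with 62, 74 and 142 reads in ATAC1 and 60, 73 and 133 in ATAC3, and only the last was also called in ATAC4, with 102. That region lay 2 bases from a peak of the absent libraries. Nod2, a sensor of bacterial cell walls, had 140 and 64 reads in ATAC1 and 93 and 47 in ATAC3, and Tlr9, a receptor for bacterial DNA, had 171 and 109 at its start site. The Tlr9 region lay 11 bases from a peak of the absent libraries and held an ATAC7 peak. Of the 69 merged regions linked to this list, 9 (13%) met the rule, against 1.74% of all regions.

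The myeloid and granulocyte list had 1 of 20 genes linked (5%, against 3.17% of all coding genes), Csf2ra, with 83 reads in ATAC1 and 114 in ATAC3, and 1 of its 54 merged regions (1.85%, against 1.74%) met the rule. The Input had 36 and 40 reads there, and the folds were 2.83 in ATAC1 and 2.87 in ATAC3. The Csf2ra region also held an ATAC7 peak and lay 205 bases from a peak of the absent libraries. The list of neutrophil granules and oxidase, added after the data were seen, had 2 of 20 (10%), Mmp9, with 97 reads in ATAC1 and 77 in ATAC3, and Ltf, an iron-binding granule protein, with 72 in ATAC1 and 66 in ATAC4. Regions of ATAC1 alone made up 15 of 54 and 17 of 57 regions of these lists, and 3614 of 50683 in all. Cxcl5 had 95 and 63 reads in ATAC1 and ATAC3, and Clec4d and Clec5a, lectin receptors of myeloid cells chosen after their values were seen, had 110 and 97 reads in ATAC1, 110 each in ATAC3 and 47 and 61 in ATAC4.

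Lasp1, an actin-binding protein, had 3 regions, with 104, 139 and 97 reads in ATAC1 and 82, 110 and 93 in ATAC3. Among regulators of blood stem cells, Fli1 had 87 and 58 reads in ATAC1 and ATAC3, beside Etv6 above, which makes 2 of 19 matched genes. The remaining lists had few or no links. Cd37 was the 1 B-lymphoid gene, Ifitm5 the 1 osteoblast gene, Sox6 the 1 chondrocyte gene, and Egr3 and Klf6 the 2 immediate early genes. The Cd37 and Sox6 regions lay 6 and 5 bases from a peak of the absent libraries. The lists of T and NK cells, endothelium, stroma and niche factors, adipocytes, pericytes, cell cycle, DNA repair, interferon response and pluripotency had 0 of 19 or 20 genes linked, where 3.17% of all coding genes were. The plot of gene lists sets the classes side by side.

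**Figure D5:**
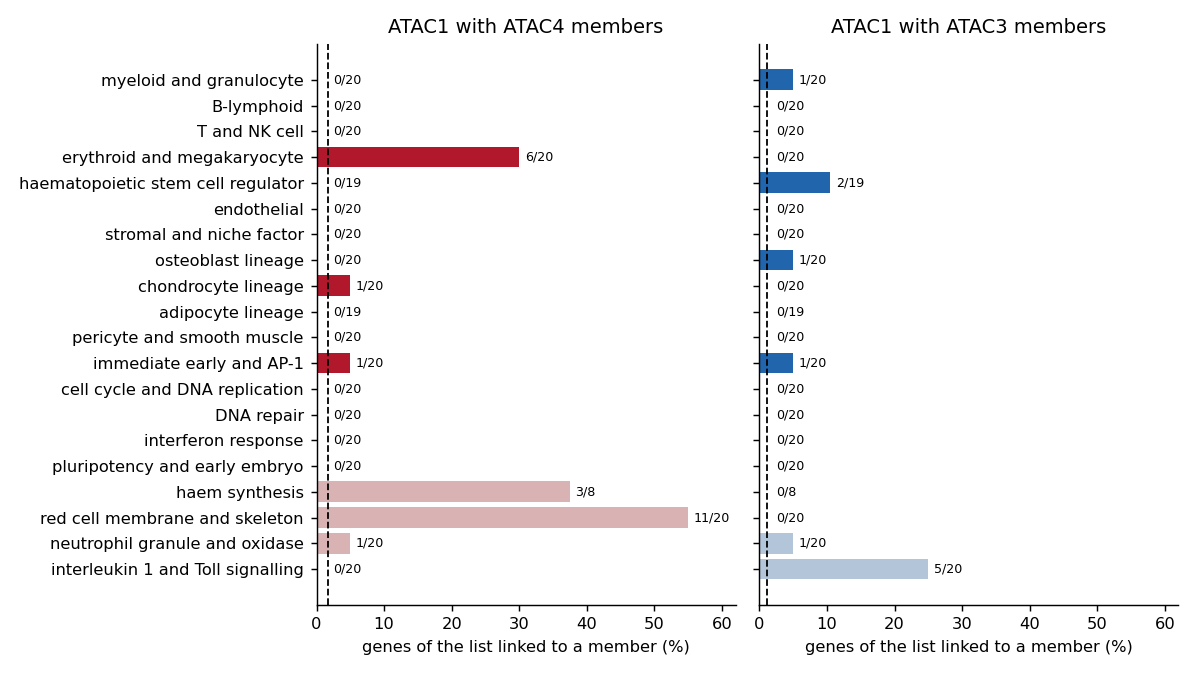
Share of the genes of each list (horizontal axis, percent) linked to a region of ATAC1 with ATAC4 (left) or of ATAC1 with ATAC3 (right), with the number of genes beside each bar, lists added after the data were seen in pale colour, and the share of all coding genes as a broken line. On the left the red cell membrane list reaches 55.0% and haem synthesis 37.5%, and on the right interleukin 1 and Toll signalling reaches 25%.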

How the data were processed

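The 7 ATAC-seq libraries of mouse bone marrow stromal cells, 1 per title, were analysed with 1 Input control, for which no table of its own was used here. Per the study's methods, the authors aligned the reads to mm9 with Bowtie and called peaks of each library against the Input with CisGenome, and 1 peak table was deposited per library. DiffBind and bedtools are named in the submitters' processing notes. Versions of Bowtie and CisGenome, a filter on duplicates and a shift for the transposase are not given in the sources used here. The protocol in the labels describes RNA libraries, so the ATAC-seq steps were taken from the methods.

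The deposited tables name no columns, which were told apart by their values. They hold the peak and a wider outer region, the deposited read counts of the library and of the Input in the outer region, the authors' fold, a ratio of scaled library reads to Input reads plus a small offset, and the authors' window signal, by which the peaks are ranked. The counts are not normalised. Peak lengths equal end minus start plus 1, and coordinates were used as given and read as counted from 1. The lists hold peaks that passed the caller, so depth outside peaks is unknown.

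From these, 164103 peaks were merged into 50683 regions, a number that bedtools 2.31.1 also gave. Distances to start sites, introns and exons were taken from GENCODE vM1 on NCBIM37, the assembly named mm9, and windows of 200 bases at region centres were read from that genome with pysam 0.24.0. Scripts ran in Python 3.11.15 with pandas 2.3.3, numpy 2.4.6 and matplotlib 3.10.9, and the merging and counting steps were tested on simulated data. Of 320 list genes 318 were matched, through RefSeq synonyms where symbols were older, and all 68 entries of the 4 added lists.

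Regions named in the text were the 6 promoter and 6 distal isolated regions with the best mean relative rank in ATAC1, ATAC3 and ATAC4, the 2 best of each class with 1 partner, the 3 nearest to an absent library's peak, the 3 that failed by the smallest overlap, up to 4 genes per list by ATAC1 rank, and the genes with most regions. Of the 6 promoter regions, 1 is not reported here. More than 4 genes were named from the red cell and the interleukin 1 and Toll lists, after their values were seen. The members, lists and motifs were chosen with earlier results of these data known. No p-value was computed, since regions are not replicates. Alternatives tried were other peak sets, overlaps, distances and windows.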

Additional observations from a re-analysis of the deposited data

How the results depend on the processing

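No paired analysis was possible because there is 1 library for each title. No alternative leaves out a replicate for the same reason, and leaving out ATAC3 or ATAC4 changes the rule itself. Apart from the windows of 100 and 300 bases for the regions as a whole, the alternatives for motif shares were chosen after seeing the data, as were those for the link distance. In all 8 alternatives of each, the GATA share of ATAC1 with ATAC4 and the PU.1 and C/EBP shares of ATAC1 with ATAC3 were above those of all distal regions, and 6 erythroid genes stayed linked within 20000 and 100000 bases. With half-open coordinates the number of regions was 881, and each share computed again stayed within its counting interval.

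With peaks of a fold of at least 5, the promoter share was 26.2%, the CpG-rich share 11.4%, the isolated share 76.0% and the distal GATA share 30.3%. With equal peak number, ATAC7 was in 25.1%, 82.2% were isolated and 19.5% held GATA. With at least 50 bases in common, 41.3% were at promoters, 14.8% held ATAC7, 24.8% were CpG-rich and 49.0% were isolated. With peaks within 500 bases merged, the values were 16.7% promoter, 3.96% ATAC7, 4.41% CpG-rich and 31.2% GATA, 47.0% GATA in the ATAC4 class, and 100% isolated by construction. With outer regions merged, they were 16.8% promoter, 3.88% ATAC7, 3.31% CpG-rich, 93.2% isolated, 29.9% GATA and 45.0% GATA in the ATAC4 class. Between these alternatives the number of regions ran from 657 to 1233.

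With both ATAC3 and ATAC4 required, 117 regions were left, with 59.0% promoter, 47.0% ATAC7, 45.3% CpG-rich, 49.6% isolated and 16.7% GATA. Without the use of ATAC3 there were 571 regions, with 13.7% ATAC7 and 36.5% GATA. Without ATAC4 there were 427, with 36.8% promoter, 18% ATAC7, 25.3% CpG-rich, 65.3% isolated and 10% GATA. These differences follow from which class was kept.

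A start site within 500 bases gave a promoter share of 22.6% (33.1% of all regions), and within 2500 bases 44.4% (47.5%). Isolation was 80.6% at 200 bases and 62.8% at 1000 bases. In windows of 100 bases the GATA share was 15.8%, in the ATAC4 class 25.5% for GATA and 18.3% for the composite, and in the ATAC3 class 2.70% for GATA, 3.15% for PU.1 and 10.4% for C/EBP, where all distal regions had 4.06% for GATA, 1.28% for the composite, 1.53% for PU.1 and 5.11% for C/EBP. In windows of 300 bases the GATA share was 31.5%, in the ATAC4 class 45.0% for GATA and 31.5% for the composite, and in the ATAC3 class 13.1% for GATA, where all distal regions had 10.7% for GATA and 3.05% for the composite. Where no construction is named, the cause was not tested. Depth outside peaks is unknown, so an absent call does not show closed chromatin.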

Other observations

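Among gene families, none of 1113 olfactory receptor genes was linked to a region, and 17 of 368 solute carrier genes were (4.62%, against 3.17% of all coding genes). Of the 368, 12 were linked to ATAC1 with ATAC4, as were 1.67% of all coding genes.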
